A study of Mus musculus with 18 samples.

Results

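The 10 genes described here encode parts of the Notch pathway: the receptors Notch1, Notch2 and Notch3, the ligands Dll1, Dll4, Jag1 and Jag2, the Notch target genes Hes1 and Nrarp, and Lfng, which modifies the receptors. They were taken by gene symbol from a count table of 43346 genes. All 10 were present, and all 10 were among the 26717 genes with a mean count above 0 that were tested. RNA was sequenced from live Epcam-positive, GFP-positive cells of untreated C57BL/6 mice of genotype Lgr5_eGFP_Iris_creERT2, the spelling of the labels for an Lgr5-EGFP-ires-creERT2 knock-in. They were 8 to 20 weeks old. In these mice GFP is produced from the Lgr5 locus, and the study describes its expression as patchy. Cells were sorted by GFP as high, medium or low, which stand for the centre of the crypt base, its border and the rows beyond it (row >3), from the small intestine (SI) and the large intestine (LI). There were 3 replicates in each of the 6 groups and 18 libraries in all. The study describes the replicates as biological replicates and as mice. Which mouse lies behind each replicate number is not given in the labels, nor whether libraries of the same number share one.

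Notch receptors are activated by ligands of the Delta and Jagged families on a neighbouring cell. The receptor is then cleaved, and its intracellular part enters the nucleus and joins the DNA-binding protein RBPJ to switch on targets such as the repressor Hes1. In the intestinal crypt, active Notch keeps cells out of the secretory lineage. Cells that express the transcription factor Atoh1 turn on Delta ligands and become goblet, Paneth or enteroendocrine cells. Notch activity is also required to maintain Lgr5+ stem cells, and Dll1 and Dll4 act redundantly as their ligands.

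Libraries held from 8312093 to 31940965 counted reads. The sum of 5 epithelial markers lay between 2580.3 and 6229 CPM (counts scaled to the library total) over the 18 libraries. Its means were 2823 in SI centre and 5612 in SI row >3 cells, where edgeR called 3 of the 5 higher, beside 7.35% of all genes. In the LI they were 3391 and 4403, where it called none and 2 had an unadjusted p under 0.05, beside 6.96% of all genes. Lgr5 was lower at the lower sorted level in the SI (5252, 4191 and 2434 normalised counts in the centre libraries, 169.6, 279.6 and 28.1 in those of row >3), as in the LI (2575, 2327 and 2176 and 134, 466 and 262). The 3 libraries of SI replicate 3 stood apart from their group. Genes that were high in the LI and nearly absent from SI replicate 1 reached, as a median, 64.3% of the LI level in the centre library of SI replicate 3 and 1.63% in that of SI replicate 2. The same shares were 84.7% and 1.38% in border cells, and 79.7% and 1.09% in row >3 cells. Olfm4, a stem cell marker of the SI that mouse colon lacks, had a normalised count of 17385 in the centre library of SI replicate 3, against 82369 and 78758 in those of replicates 1 and 2 and at most 79.4 in LI centre libraries. The level of the LI genes goes against the SI label of these 3 libraries, while Olfm4 lay between the sites. Their 5 Paneth cell markers summed to 1837, 543 and 198 CPM in centre, border and row >3, far above every LI library (at most 1.99). In SI replicates 1 and 2 these sums were 1660 and 7683, then 3395 and 5922, then 3120 and 4501. Whether the 3 libraries hold LI material, which would enter every SI mean and every difference between the sites, was not tested. Counts of called genes are therefore also given without its 3 libraries where that moved them, beside the main marker sums and shares. All replicate 2 libraries carried Y-linked RNA (1166 to 2372 summed counts of 2 genes) and the other libraries at most 1 count.

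The comparison of row >3 with centre cells asks how Notch genes differ between cells at the crypt base and Lgr5-low cells above it. In the SI, row >3 cells had 4.53-fold less Notch1, 3.22-fold less Notch2, 5.13-fold less Notch3 and 2.60-fold less Hes1 than centre cells, and 3.29-fold more Dll1 and 2.16-fold more Dll4. With Benjamini-Hochberg adjustment, the quasi-likelihood test of edgeR called 7 of the 10 genes, 2 higher (Dll1 and Dll4) and 5 lower (Notch1, Notch2, Notch3, Hes1 and Lfng). Of all genes tested, 13.2% were called in this comparison, 7.35% higher and 5.82% lower. The median log2 fold change of the 10 genes was -0.75, against 0 over all genes tested. Without SI replicate 3, 6 of the 10 were called, beside 17.1% of all genes, and Notch3 was lost. In the LI 7 of the 10 genes were also below 0 and 3 above 0, the same 3 as in the SI (Dll1, Dll4 and Jag2), but none was called, with 0.0187% of all genes called. In the LI 4 were called with a block on the replicate number within site, beside 2.59% of all genes, and 5 in the fit without SI replicate 3, beside 1.9%. At an unadjusted p under 0.05 there were 5 in the LI, beside 6.96% of all genes, and DESeq2 called 1 (Notch1), beside 0.348% of all genes. In bulk RNA of a sorted population, fewer cells of a type and less RNA per cell cannot be told apart.

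**Figure D1:**
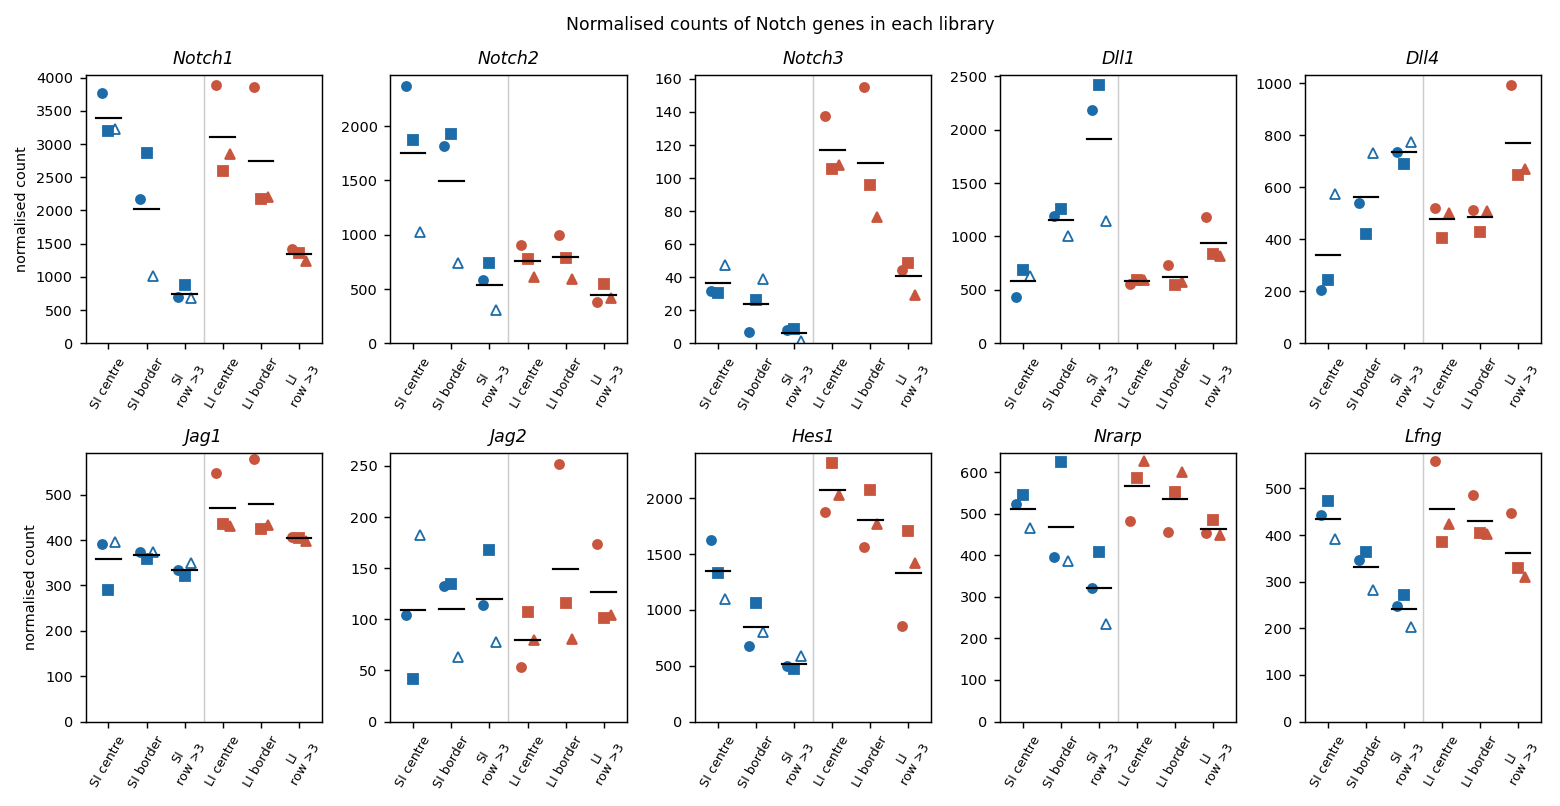
Normalised count (y axis, linear) of each of the 10 genes in each library, by group (x axis), with circles, squares and triangles for replicates 1, 2 and 3, open triangles for SI replicate 3 and a line at the mean of 3 libraries. Notch1 reaches at most 871 in SI row >3 and at least 3195 in SI centre libraries, and Dll1 has its 2 highest values in SI row >3 libraries.

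Notch1 (chr2:26457903-26516663, minus strand, GRCm38), the receptor gene with the highest level per length in centre cells of both sites, had normalised counts of 3768, 3195 and 3230.4 in the SI centre libraries of replicates 1, 2 and 3, 2175, 2867 and 1012 in SI border and 698, 871 and 676 in SI row >3. The centre and row >3 libraries were far apart, and the border libraries lay between them. Row >3 cells had 4.53-fold less than centre cells (log2 fold change -2.18 ± 0.28 (SE), adjusted p = 7.35e-05, edgeR), and -2.15 on the log2 scale without SI replicate 3. In the LI, Notch1 was at 3886, 2599 and 2843 in centre, 3866, 2176 and 2209 in border and 1419, 1365 and 1246 in row >3 cells. Every LI row >3 library was below every LI centre library, with a log2 fold change of -1.20 ± 0.27 that was not called by edgeR (adjusted p = 0.193). A block for the replicate number within each site gave an adjusted p of 0.0124, and DESeq2 0.0229.

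Notch2 (chr3:98013527-98150361, plus strand), a receptor that acts beside Notch1 in the crypt, stood at 2373, 1871 and 1022 normalised counts in SI centre libraries, at 1818, 1927 and 742 in SI border and at 583, 736 and 304 in SI row >3 libraries. SI replicate 3 was the lowest of the 3 libraries at each level. Even so, no row >3 library reached the lowest centre library, and the log2 fold change was -1.69 ± 0.37 (adjusted p = 0.00567, edgeR), or -1.68 (adjusted p = 1.23e-05) without SI replicate 3. A fit on these 6 libraries alone gave an adjusted p of 0.0513. In LI centre, border and row >3 cells the counts of Notch2 were 901, 774 and 607, then 999, 785 and 592, then 378, 545 and 418. The LI row >3 libraries lay below all LI centre libraries, with a log2 fold change of -0.75 ± 0.36 (adjusted p = 0.728, edgeR; 0.0211 with the replicate block within site).

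Notch3 (chr17:32120820-32166852, minus strand), a receptor best known from vascular smooth muscle and pericytes, was measured at low depth, with 123 raw counts summed over the 3 SI centre libraries and 24 over the 3 SI row >3 libraries. Its normalised counts stood at 31.6, 30.4 and 47.6 for SI centre libraries, 7.08, 25.9 and 38.9 in SI border and 8.21, 8.69 and 1.56 in SI row >3 cells. The border libraries spread over the range of both other groups. The log2 fold change of row >3 against centre was -2.36 ± 0.58 (adjusted p = 0.00828, edgeR), and without SI replicate 3 it was -1.86 and no longer called (adjusted p = 0.0669). In the LI Notch3 was at 138, 106 and 108 in centre, 155, 96.1 and 76.7 in border and 44.6, 48.6 and 29.2 in row >3 cells, a log2 fold change of -1.49 ± 0.40 between row >3 and centre (adjusted p = 0.314, edgeR; 0.0136 with the block within site). The summed level of 5 mural and smooth muscle markers was 3.65 (range 1.65 to 6.70) CPM in SI centre, 10.1 (range 5.15 to 17.7) in SI row >3, 4.53 (range 4.12 to 5.25) in LI centre and 7.76 (range 6.34 to 9.39) in LI row >3 cells, so within each site the mean of these markers was higher where Notch3 was lower. The SI means without replicate 3 were 2.12 and 6.28 CPM, and 1 of the 5 markers, Pdgfrb, was then called higher in row >3 cells (1.73, adjusted p = 0.00297, edgeR). Of the defining markers, Rgs5 was at 0 in SI row >3 and Rgs5 and Des in LI row >3 cells. Their part in the Notch3 difference was not tested.

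Dll1 (chr17:15367354-15376872, minus strand), a Delta ligand of secretory precursors, stood at 430.3, 689.8 and 629 normalised counts in SI centre libraries, at 1195, 1253 and 1001 in SI border and at 2179.7, 2416 and 1141 in SI row >3 libraries. All border libraries were above all centre libraries, and replicate 3 was the lowest row >3 library. Row >3 cells had 3.29-fold more than centre cells (log2 fold change 1.72 ± 0.24, adjusted p = 7.42e-05, edgeR), or 2.05 on the log2 scale without SI replicate 3. In the LI the counts were 556, 589 and 594 in centre, 735, 544 and 573 in border and 1185, 831 and 813 in row >3 cells. The LI row >3 libraries were above all LI centre libraries by a log2 fold change of 0.70 ± 0.23, which was not called (adjusted p = 0.488, edgeR), while the fit without SI replicate 3 gave an adjusted p of 0.0471.

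Dll4 (chr2:119325784-119335962, plus strand), the other Delta ligand of the crypt and a ligand of endothelial cells as well, was at 205, 244 and 573 in SI centre, 541, 421 and 732 in SI border and 737, 691 and 774 in SI row >3 cells. The centre library of replicate 3 was well above the other centre libraries and did not reach the row >3 range. The log2 fold change of row >3 against centre was 1.11 ± 0.30 (adjusted p = 0.0145, edgeR), and 1.68 (adjusted p = 1.37e-05) without SI replicate 3. Dll4 was not called without SI centre replicate 1 (adjusted p = 0.0967), without SI centre replicate 2 (0.0881) or in a fit on these 6 libraries alone (0.0806). In LI centre, border and row >3 cells Dll4 had counts of 522, 407 and 502, then 514, 429 and 509.9, then 995, 648 and 669.6, with a log2 fold change of 0.70 ± 0.29 between row >3 and centre (adjusted p = 0.626, edgeR). The 5 endothelial markers summed to 0.937, 4.35 and 2.82 CPM in SI centre, border and row >3 cells, and to 1.14, 1.81 and 1.21 in the LI. Without SI replicate 3 the SI sums were 0.556, 4.10 and 1.71. Pecam1, an endothelial gene, had mean normalised counts of 4.36, 36.3 and 38.9 in the SI and 17.1, 24.2 and 16.9 in the LI. Cdh5, a defining marker of endothelium, had no count in 5 of the 6 groups and 1 raw count in LI border. Group means of Dll4 lay between 16.7 and 39.1 CPM. The part of endothelial cells in the Dll4 differences was not tested. Dll4 overlaps the antisense gene Gm14207, which reached a group mean of 6.45 CPM. Dll1 overlaps A930024N18Rik, which reached 2.21 CPM, and Notch1 overlaps 0610009E02Rik, which reached 0.933 CPM. The strand used for counting is not given in the sources used here.

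The start regions of both Delta genes are shown because within each site their means were higher, and that of Hes1 lower, in row >3 than in centre cells. RefSeq (GRCm38.p6) windows from 250 bases before to 50 after a gene's start were at hand for 9 of the 10 genes. Hes1 had no window and was not searched. The windows were searched on both strands for CACNAG, the N box that Hes proteins are known to bind, and for TGGGAA, the core bound by RBPJ. The N box was in the windows of 7 of these 9 genes and in 42.5% of all 32851 windows. Besides Dll1 and Dll4 they were Notch1, Notch2, Notch3, Nrarp and Lfng. Within each site the means of these other genes were lower in row >3 than in centre cells, like that of Hes1. Of the 2 windows of Dll1, only the more upstream held an N box. A match is a description of the letters and not a binding site. In capitals are the N boxes of Dll1 (the more upstream of its 2 windows, chr17:15376883-15377182, minus strand, match beginning at base 14 from the start) and Dll4 (chr2:119325534-119325833, plus strand, 75 bases before the start). The N boxes and the RBPJ cores did not overlap in any window.
Dll1: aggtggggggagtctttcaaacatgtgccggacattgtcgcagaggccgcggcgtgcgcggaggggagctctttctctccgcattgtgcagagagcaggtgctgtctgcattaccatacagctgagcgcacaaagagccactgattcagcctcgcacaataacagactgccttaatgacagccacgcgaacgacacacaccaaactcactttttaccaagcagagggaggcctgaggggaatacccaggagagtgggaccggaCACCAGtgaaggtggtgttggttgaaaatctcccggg
Dll4: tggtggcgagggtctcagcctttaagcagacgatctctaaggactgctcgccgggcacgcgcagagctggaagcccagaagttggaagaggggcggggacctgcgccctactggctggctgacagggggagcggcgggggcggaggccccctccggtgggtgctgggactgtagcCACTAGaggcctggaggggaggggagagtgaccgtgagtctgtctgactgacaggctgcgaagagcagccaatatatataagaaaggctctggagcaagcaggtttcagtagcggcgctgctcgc

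Jag1 (chr2:137081456-137116644, minus strand), a Jagged ligand, stayed within a narrow range, from 289 to 578 normalised counts over the 18 libraries. Its log2 fold change of row >3 against centre was -0.10 ± 0.19 for SI and -0.21 ± 0.19 for LI cells (adjusted p = 0.841 and 0.966, edgeR). The LI row >3 libraries, at 407, 405 and 398, were all just below the LI centre libraries, at 548, 434 and 430.2, and the SI libraries of these levels overlapped. Jag2 (chr12:112907819-112929776, minus strand), the other Jagged ligand, was lower and more scattered, from 41.4 to 252, and a single group, SI centre, ran from 41.4 to 183. Its log2 fold changes were 0.16 ± 0.47 and 0.62 ± 0.48 (adjusted p = 0.957 and 0.929). Neither Jagged gene was called in any of the 9 comparisons of levels and sites.

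Hes1 (chr16:30064384-30067796, plus strand), the repressor through which Notch blocks Atoh1, stood at 1625, 1328 and 1098 normalised counts in SI centre libraries, at 680.0, 1059 and 798 in SI border and at 497, 472 and 589 in SI row >3 cells. The 3 groups did not overlap. Row >3 cells had 2.60-fold less Hes1 than centre cells (log2 fold change -1.38 ± 0.23, adjusted p = 0.000412, edgeR), or -1.60 on the log2 scale without SI replicate 3. In the LI it was at 1882, 2316 and 2030.0 in centre, 1564, 2072 and 1769 in border and 859.9, 1704 and 1418 in row >3 cells. The LI row >3 libraries lay below the LI centre libraries and replicate 1 furthest below, with a log2 fold change of -0.64 ± 0.22 (adjusted p = 0.541, edgeR; 0.0344 with the block within site).

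Nrarp (chr2:25180758-25183339, plus strand), a Notch target that feeds back on the receptor's intracellular part, stood at 524, 544 and 466 normalised counts in SI centre libraries, at 397, 623 and 385 in SI border and at 321, 408 and 234 in SI row >3 cells. Row >3 libraries were all below the centre libraries, but the log2 fold change of -0.66 ± 0.22 was just short of the threshold (adjusted p = 0.0522, edgeR). It was called with the replicate block within site (adjusted p = 0.00319), with DESeq2 (0.0199), with edgeR's filter on low counts (0.0308) with DESeq2-type scaling factors in edgeR (0.0498), with scaling by library size alone (-0.84, 0.0370) and without SI row >3 replicate 2 (0.0237). LI centre libraries had 483, 586 and 627 and LI row >3 libraries 455, 484 and 448 normalised counts of Nrarp, with some overlap (log2 fold change -0.29 ± 0.22, adjusted p = 0.924).

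Lfng (chr5:140607320-140615545, plus strand), a fringe glycosyltransferase that adds sugars to Notch and is known to favour Delta over Jagged ligands, stood at 442, 472 and 392 normalised counts in SI centre libraries, at 347, 363 and 283 in SI border and at 247, 272 and 203 in SI row >3 cells. These 3 groups did not overlap either. The log2 fold change of row >3 against centre was -0.85 ± 0.20 (adjusted p = 0.00712, edgeR), and -0.81 without SI replicate 3. In LI centre and row >3 cells the counts were 559, 386 and 423, then 446, 330.2 and 309, with overlap and a log2 fold change of -0.32 ± 0.20 (adjusted p = 0.846). Of the 9 genes with a RefSeq window, Lfng was the only one with the RBPJ core TGGGAA in it, which 25.6% of all windows hold. The window (chr5:140607091-140607390, plus strand) is shown for its pair of cores, in capitals, on the other strand 135 bases before the start and on the given strand 108 bases before it.
Lfng: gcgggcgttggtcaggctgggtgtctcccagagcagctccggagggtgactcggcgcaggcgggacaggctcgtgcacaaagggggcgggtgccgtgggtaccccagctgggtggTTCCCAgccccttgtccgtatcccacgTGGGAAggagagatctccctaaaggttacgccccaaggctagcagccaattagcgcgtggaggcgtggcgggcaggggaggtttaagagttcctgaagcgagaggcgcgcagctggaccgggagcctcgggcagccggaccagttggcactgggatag

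**Figure D2:**
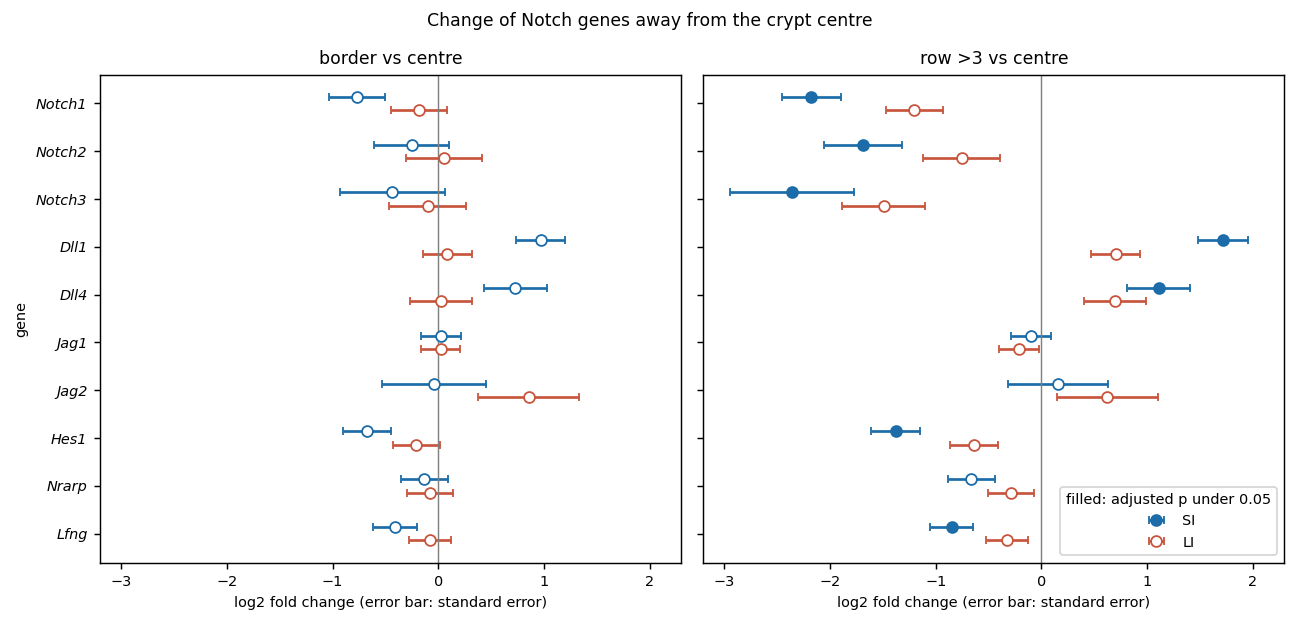
Log2 fold change with its standard error (x axis) for each of the 10 genes (y axis), border against centre (left) and row >3 against centre (right), in the SI (blue) and the LI (red), with filled points where edgeR's adjusted p was under 0.05. In row >3 cells 7 SI points are filled and no LI point is, and the SI point lies further from 0 than the LI point for the receptors, Dll1, Dll4, Hes1, Nrarp and Lfng.

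Border and centre cells were compared to see whether Notch genes already differ between the GFP-high and GFP-medium sorts. In the SI, Dll1 had the largest difference of the 10 genes, at a log2 fold change of 0.97 ± 0.23, and every border library was above every centre library. Notch1 at -0.77 ± 0.27, Hes1 at -0.68 ± 0.23 and Lfng at -0.41 ± 0.20 were lower in every border library. None of the 10 was called by edgeR, where 0.0112% of all genes were called, and 4 had an unadjusted p under 0.05 (Notch1, Dll1, Dll4 and Hes1), beside 8.98% of all genes. Dll1 alone was called with DESeq2 (adjusted p = 0.0290), beside 0.782% of all genes, and with the replicate block within site (0.0149), where 2.32% of all genes were called. Without SI replicate 3, Dll1 (1.10, adjusted p = 0.0126) and Dll4 (1.05, adjusted p = 0.0359) were called, beside 0.963% of all genes. In the same fit 5 of 5 tuft cell, 2 of 5 goblet, 1 of 4 secretory precursor, 1 of 5 absorptive, 1 of 5 epithelial and 1 of 5 immune markers were called higher, and the goblet sum was 822 CPM in centre and 5830.0 in border cells. With all libraries 1 absorptive marker was called higher in border cells and none of the other lists, and the goblet sums were 3759.9 (range 616 to 9636) and 8070.0 (range 3771 to 12550.1). The part of these cells in the border differences was not tested. Leaving out SI centre replicate 3 alone gave a call for Dll4 (1.32, adjusted p = 0.00893). In the LI the log2 fold changes lay between -0.21 (Hes1) and 0.86 (Jag2), and all 10 genes overlapped between border and centre libraries. None was called by edgeR or DESeq2, none had an unadjusted p under 0.05 in either, and 0 of all genes were called by edgeR, a share of 0%.

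In the LI comparison of row >3 with centre, the calls differed between fits. With the replicate block within site, 4 of the 10 genes were called (Notch1, Notch2, Notch3 and Hes1, all lower), beside 2.59% of all genes. Without SI replicate 3, 5 were called (the 3 receptors lower, Dll1 and Dll4 higher), beside 1.9% of all genes. Every LI library was kept in that fit, and the groups of a fit share an estimate of the spread of each gene. The part of this in the calls was not tested. The log2 fold change of Notch1 was -1.20 in the fit of 6 groups, -1.18 with the block and -1.21 without SI replicate 3.

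Whether the sites differ in these contrasts was tested directly. For row >3 against centre, the SI change exceeded the LI change by 1.01 ± 0.33 on the log2 scale for Dll1 (unadjusted p = 0.00517, adjusted p = 0.427, edgeR). For Notch1 the SI change minus the LI change was -0.98 ± 0.38 (adjusted p = 0.560) and for Hes1 -0.74 ± 0.32 (adjusted p = 0.643). None of the 10 was called, 3 had an unadjusted p under 0.05, beside 6.74% of all genes, DESeq2 called 0, and edgeR called 0% of all genes. With the block within site Notch2 was called (-0.97, adjusted p = 0.0342), beside 2.32% of all genes, and without SI replicate 3 Dll1 was called (1.36, adjusted p = 0.00580), beside 3.27%. In that fit and contrast 2 of 4 secretory precursor, 2 of 5 goblet, 4 of 5 tuft cell, 2 of 5 absorptive, 2 of 5 epithelial and 1 of 5 immune markers were called higher and 1 of 5 stem cell markers lower, and their part in the Dll1 difference was not tested. Leaving out SI row >3 replicate 3 alone also gave a call for Dll1 (1.28, adjusted p = 0.0482). For border against centre with all libraries, the largest difference between sites was in Jag2 (-0.89 ± 0.69), followed by Dll1 (0.88 ± 0.33, unadjusted p = 0.0134). Again 0 were called by edgeR or DESeq2, with 0% of all genes called. At the unadjusted threshold, 1 gene passed in each tool, beside 2.65% of all genes in edgeR. That order rests on SI replicate 3: without it Jag2 was at -0.0035, and the largest were Dll4 (1.03) and Dll1 (1.02), not called.

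**Figure D3:**
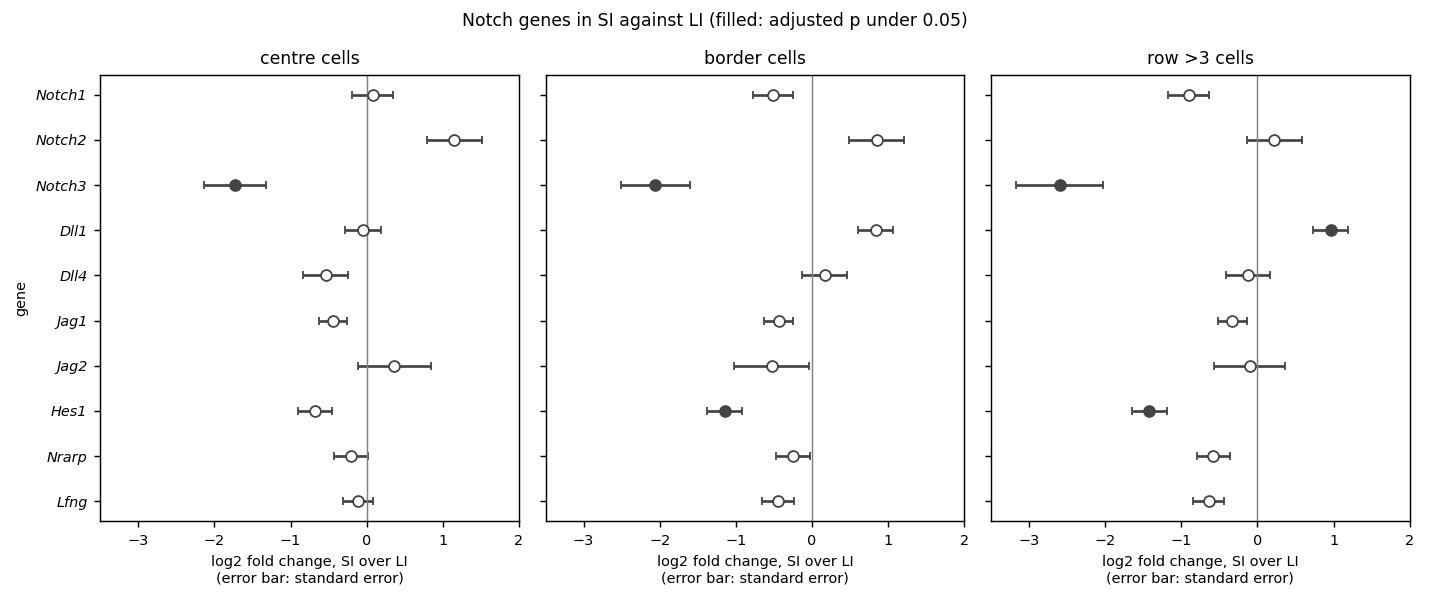
Log2 fold change of SI over LI with its standard error (x axis) for each of the 10 genes (y axis) in centre, border and row >3 cells, with filled points where edgeR's adjusted p was under 0.05. Notch3 is filled and below 0 in all 3 panels, Hes1 in border and row >3 cells, and Dll1 is filled and above 0 in row >3 cells.

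SI and LI were compared at each level to find Notch genes set differently at the 2 sites. Notch3 was lower in the SI at every level, with log2 fold changes of -1.73 ± 0.40 in centre (adjusted p = 0.0245), -2.06 ± 0.45 in border (0.0189) and -2.59 ± 0.57 in row >3 cells (0.00921, edgeR). The group means were 36.5 ± 9.58 against 117 ± 17.8 normalised counts in centre cells (SD, n = 3), and no SI library reached an LI library of its level. Its call in centre cells was lost when any of 5 of the 6 libraries compared was left out, with adjusted p between 0.0708 and 0.131, and in edgeR's older quasi-likelihood fit (0.126). In border cells the call was lost without SI border replicate 1 (0.0875) or 2 (0.0651), without LI border replicate 1 (0.0792) or 2 (0.0577) and in a fit on the border libraries alone (0.0994). In row >3 cells it was lost without SI replicate 1 of that level (0.0599) or LI replicate 2 (0.0526).

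Hes1 was also lower in the SI, at -0.68 ± 0.23 in centre (0.128, not called), -1.15 ± 0.23 in border (0.0104) and -1.42 ± 0.23 in row >3 cells (adjusted p = 0.000684, edgeR). Its SI and LI libraries did not overlap at any level, and LI row >3 cells, at 1328 ± 429, overlapped with SI centre cells, at 1350.1 ± 264 normalised counts (SD, n = 3). In border cells the call of Hes1 was lost without SI border replicate 1 (adjusted p = 0.0754) or LI border replicate 2 (0.0730), and in row >3 cells it held in every fit.

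The Dll1 libraries of SI and LI centre cells overlapped (583 ± 136 and 579.7 ± 20.4, log2 fold change -0.05 ± 0.23). In border cells all SI libraries were above all LI libraries (0.83 ± 0.23, adjusted p = 0.0712, not called by edgeR, and 0.0173 with DESeq2), and in row >3 cells Dll1 was called higher in the SI (0.96 ± 0.23, adjusted p = 0.0171). The row >3 libraries overlapped, since SI replicate 3 at 1141 was below LI replicate 1 at 1185. The call was lost without SI row >3 replicate 1 (adjusted p = 0.117) or 2 (0.101) and without LI row >3 replicate 2 (0.103) or 3 (0.0974). Dll4 went the other way in centre cells, lower in the SI at -0.54 ± 0.30 (not called, adjusted p = 0.433, with overlap), and at -1.10 (adjusted p = 0.00122, called) without SI replicate 3, whose centre library, at 573, was above all LI centre libraries.

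Notch2 was higher in SI centre than in LI centre cells in every library (1755 ± 683 against 761 ± 147), at a log2 fold change of 1.15 ± 0.36 that edgeR did not call with all libraries (adjusted p = 0.122). It was called by DESeq2 (adjusted p = 0.0253) and without SI centre replicate 3 alone (0.0263). Without the 3 libraries of SI replicate 3 it was called in centre cells (1.47, adjusted p = 1.71e-05) and in border cells (1.21, adjusted p = 0.000332). In row >3 cells the sites overlapped (0.22 ± 0.36). Notch1 overlapped in centre cells (0.08 ± 0.27) and was lower in SI than in LI row >3 cells in every library (-0.90 ± 0.27, adjusted p = 0.0704), which was called without SI replicate 3 (0.0237). Lfng and Nrarp were also lower in every SI row >3 library than in every LI one, at -0.64 ± 0.20 and -0.58 ± 0.22 (adjusted p = 0.0868 and 0.177, not called by edgeR without a block). For Jag1, every SI library was below every LI library of its level. Going from centre to row >3, its SI over LI values were -0.44 ± 0.19, -0.44 ± 0.19 and -0.33 ± 0.19. None was called (adjusted p = 0.264, 0.297 and 0.445, edgeR). The mural and smooth muscle markers summed to lower means in SI than in LI centre cells (3.65 against 4.53 CPM, and 2.12 in the SI without replicate 3) and to higher ones in border (6.65 against 4.69) and row >3 cells (10.1 against 7.76, and 6.28 without replicate 3, then below the LI). None of the 5 was called between the sites with all libraries, and without SI replicate 3 Cspg4 was called lower in SI row >3 cells (adjusted p = 0.000584, edgeR). Their part in the site difference of Notch3 was not tested.

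In all, edgeR called 1 of the 10 genes between SI and LI centre cells (Notch3, lower), where 1.99% of all genes were called and 0.805% were lower. It called 2 in border cells (Notch3 and Hes1, lower), against 1.76% of all genes and 0.606% lower, and 3 in row >3 cells (Dll1 higher, Notch3 and Hes1 lower), against 4.09% of all genes, 2.76% higher and 1.32% lower. DESeq2 called 2 in centre cells (Notch2 and Notch3), 3 in border cells and 3 in row >3 cells (Notch3, Dll1 and Hes1 in both), beside 4.64%, 4.54% and 6.34% of all genes. A block on the replicate number over all libraries called 2, 4 and 5, beside 5.61%, 4.27% and 6.89%. Equal numbers did not deviate together in every pair across the sites, so this block is an alternative only. Without SI replicate 3, 3 genes were called in centre cells (Notch2, Notch3 and Dll4), 4 in border cells (Notch2, Notch3, Dll1 and Hes1) and 4 in row >3 cells (Notch1, Notch3, Dll1 and Hes1), beside 10.9%, 8.11% and 12.2% of all genes. At each level 5 of 5 Paneth and 3 of 5 stem cell markers were then called higher in the SI. In centre cells 2 secretory precursor, 2 goblet, 4 tuft, 1 enteroendocrine, 1 absorptive and 1 epithelial were lower and 1 goblet higher. In border cells 1 goblet, 3 tuft, 3 absorptive and 1 endothelial were higher and 1 absorptive lower. In row >3 cells 1 secretory precursor, 1 enteroendocrine, 3 tuft, 4 absorptive and 2 epithelial were higher and 1 absorptive lower. Their part was not tested.

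Levels were compared between genes per length, as CPM per kb of exon. In SI centre cells Hes1 was highest at 32.3, followed by Notch1 at 11.6, Nrarp at 9.65, Lfng at 8.47, Notch2 at 7.92 and Dll1 at 6.74. In SI row >3 cells Dll1 was highest at 22.1, ahead of Hes1 at 12.5 and Dll4 at 9.32, while Notch1 was at 2.57. Replicate 3 was the exception, with a ratio of Dll1 to Hes1 of 0.936. In the LI Hes1 stayed highest at each level, from 51.7 in centre to 33.2 in row >3 cells, where Dll1 was at 11.3. Among the 3 receptors, Notch1 made up 59.8% ± 8.27 (SD, n = 3) of the summed CPM per kb for SI centre and 71.8% ± 3.13 for LI centre cells, and Notch2 39.1% ± 8.81 and 23.4% ± 3.10. Among the 4 ligands, the share of Jag1 was 21.1% ± 6.30 for SI centre and 8.34% ± 2.39 for SI row >3 cells, and that of Dll1 46.3% ± 10.3 and 61.6% ± 10.3. In SI row >3 cells with all 3 libraries Notch1 made up 52.2% (range 46.9% to 62.6%) and Notch2 47.1% (range 37.2% to 52.3%). Leaving out SI replicate 3, the shares in SI centre cells were 55.0% for Notch1 and 44.1% for Notch2, and in SI row >3 cells they were 47.0% and 52.1%, with Notch2 ahead. The ligand shares without it were 23.0% and 6.97% for Jag1 and 50.4% and 67.5% for Dll1.

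The ratio of Dll1 to Notch1, on the scale of CPM per kb, puts the opposite changes of ligand and receptor in a single value per library. It was 0.385, 0.728 and 0.656 in SI centre, 1.85, 1.47 and 3.34 in SI border and 10.5, 9.36 and 5.69 in SI row >3 libraries. These groups did not overlap, and their means were 0.590 ± 0.181, then 2.22 ± 0.985, then 8.53 ± 2.53 (SD, n = 3). In the LI the ratio was 0.483, 0.764 and 0.705 in centre, 0.641, 0.843 and 0.875 in border and 2.82, 2.05 and 2.20 in row >3 libraries, so centre and border overlapped and row >3 lay above both. All LI row >3 libraries were below all SI row >3 libraries.

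**Figure D4:**
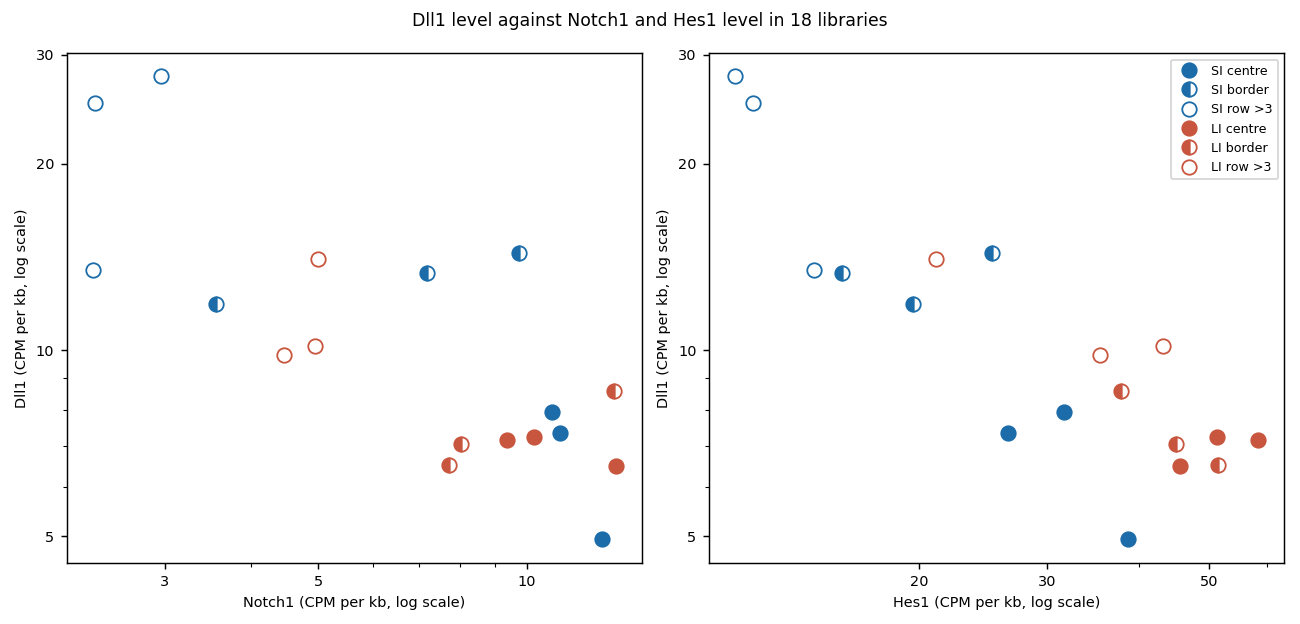
Level of Dll1 (y axis) against Notch1 (left) and Hes1 (right) in each of the 18 libraries, in CPM per kb of exon on log axes, with blue for SI, red for LI and filled, partly filled and open circles for centre, border and row >3 cells. SI row >3 libraries sit at the upper left of both panels, with high Dll1 and low Notch1 and Hes1, and the centre libraries of both sites at the lower right.

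Markers of other cell types were summed beside the Notch genes, and several lists differed with the sorted level. The sum of 4 secretory precursor markers (Atoh1, Gfi1, Spdef and Neurog3) had means of 45.5 (range 8.33 to 104) CPM in SI centre, 87.3 (range 58.2 to 117) in SI border and 226 (range 203 to 255) in SI row >3 cells. In the LI it was 117 (range 76.0 to 167), 128 (range 103 to 164) and 223 (range 181 to 255). Atoh1 itself, the factor that Hes1 represses, stood at 81.8, 269.8 and 1209.5 normalised counts across SI centre and 1939, 2013 and 2677 across SI row >3 libraries, against 996, 1080.2 and 1884 and 2703, 1953 and 3066 in the LI, and was not called at either site (adjusted p = 0.0803 in the SI and 0.918 in the LI, edgeR). The 5 goblet markers summed to 3759.9 (range 616 to 9636) CPM in SI centre and 37123 (range 29967 to 48600.3) in SI row >3 cells, and to 7719 (range 6165 to 9818) and 19069 (range 13917 to 22498) in the LI. The 5 enteroendocrine markers summed to 107 (range 15.1 to 254) and 279 (range 54.3 to 466) in the SI and to 199.9 (range 161 to 235) and 169 (range 72.7 to 234) in the LI. The 5 tuft cell markers were highest in border cells, at 152 (range 27.0 to 395) in SI centre, 496 (range 264 to 814) in SI border and 246 (range 81.3 to 343) in SI row >3 cells, and at 174 (range 136 to 215), then 238 (range 202 to 308), then 131 (range 121 to 136) in the LI. Absorptive markers summed to 76.0 (range 51.5 to 99.0) and 898 (range 545 to 1201) in the SI, and to 70.9 (range 65.0 to 76.7) and 143 (range 126 to 167) in the LI, and 5 stem cell markers to 3844 (range 1423 to 5159) and 339.6 (range 57.8 to 623) in the SI and to 384 (range 367 to 411) and 96.1 (range 80.8 to 116) in the LI. In SI centre cells, replicate 3 was the highest of the 3 libraries in both secretory precursor and goblet markers and the lowest in stem cell markers. The 5 Paneth cell markers summed to 3726 (range 1659.8 to 7683) CPM in SI centre and 2606 (range 198 to 4501) in SI row >3 cells, and to at most 1.99 CPM in an LI library. Fibroblast and immune markers reached group means of at most 3.48 and 19.1 CPM, the former in LI border cells, where replicates 1, 2 and 3 were at 9.998, 0.379 and 0.0772. From the other SI replicates alone, the SI centre means were 16.5 for secretory precursor, 822 for goblet, 30.5 for tuft and 5055 for stem cell markers, and the SI row >3 means 212, 40701, 329 and 480.5. No marker of the secretory precursor, goblet, absorptive and stem cell lists had a group mean of 0. Row >3 against centre, edgeR called 2 of 4 secretory precursor, 4 of 5 goblet, 1 of 5 enteroendocrine (Cck), 0 of 5 tuft cell (none at an unadjusted p under 0.05) and 4 of 5 absorptive markers higher and 3 of 5 stem cell markers lower in the SI, with 1 of 5 goblet markers lower. In the LI it called none of them, with 4 goblet and 4 stem cell markers at an unadjusted p under 0.05, beside 6.96% of all genes. There 4 of 5 enteroendocrine and 5 of 5 tuft cell markers were below 0. Of all genes, edgeR called 13.2% in the SI and 0.0187% in the LI, or 17.1% and 1.9% without SI replicate 3. In the fit without SI replicate 3 it called 3 secretory precursor (Atoh1 with an adjusted p of 0.000731), 4 goblet, 2 enteroendocrine, 4 tuft cell, 1 Paneth (Mmp7) and 4 absorptive markers higher and 1 goblet and 5 stem cell markers lower in the SI, and 1 goblet and 4 stem cell markers lower in the LI. It also called 3 epithelial, 1 immune and 1 mural marker higher and 1 immune marker lower in the SI, and 1 epithelial marker higher in the LI. The part of these cell types in the differences of the Notch genes was not tested.

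The other genes of the pathway were described by a list. Of 42 genes that act in Notch signalling (a further receptor, ligands, glycosyltransferases, ligand endocytosis, cleavage, the nuclear complex, turnover and targets), 41 were tested, and 10 of the 42 stayed under 1 CPM in every group. In SI row >3 against centre cells 3 were called, all lower, with a median log2 fold change over the list of 0.24, against 13.2% of all genes. Dtx4, an E3 ligase of the Deltex family, was at 2091, 2125 and 1191 normalised counts in centre and 393, 677 and 262 in row >3 libraries, a log2 fold change of -2.01 ± 0.43 (adjusted p = 0.00621, edgeR). Dtx3 of the same family (-1.59 ± 0.47, 0.0268) and Maml2, a coactivator of the RBPJ complex (-1.72 ± 0.54, 0.0383), were lower as well, with group means below 5 CPM in the SI. Rbpj, the DNA-binding partner of Notch, was not called (-0.56 ± 0.26, adjusted p = 0.199), nor was Adam10, the protease of the cleavage that ligand binding sets off (0.51 ± 0.20, 0.107). Without SI replicate 3, 10 of the list were called, 7 higher and 3 lower, beside 17.1% of all genes. Dtx4 (-1.98, adjusted p = 3.53e-06), Dtx3 (0.0275) and Maml2 (0.0245) kept their calls, and Adam10 was called higher (0.63, 0.0411).

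In the LI, edgeR called none of the 41 genes for row >3 against centre, and their median was 0.07. At an unadjusted p under 0.05 there were 2, beside 6.96% of all genes. It called none in border against centre cells of either site or in the tests of the site difference. In border against centre, 3 in the SI and 1 in the LI passed the unadjusted threshold, beside 8.98% and 1.38% of all genes. In the site differences of border and row >3, 1 and 0 passed it, beside 2.65% and 6.74%. Between the sites edgeR called Aph1b, a subunit of the gamma-secretase that cleaves Notch, lower in SI centre (-1.91 ± 0.48, adjusted p = 0.0411) and row >3 cells (-1.62 ± 0.44, 0.0402). When SI replicate 3 was left out, edgeR called 8 of the list between the sites for centre cells, 5 for border cells and 5 for cells of row >3, beside 10.9%, 8.11% and 12.2% of all genes. In that fit Aph1b was at -2.64 and -2.11 in centre and row >3 cells, and Dtx4 was called lower in LI row >3 against centre cells (-1.10, adjusted p = 0.00458). Notch4, a receptor known from endothelium, was higher in SI border (2.63 ± 0.54, 0.0131) and row >3 cells (1.96 ± 0.49, 0.0263), at 2.93 and 2.43 without SI replicate 3. It had normalised counts of 394, 229 and 143 in SI border against 54.1, 28.7 and 31.3 in LI border libraries, and the row >3 libraries overlapped. The endothelial markers summed to 4.35 (range 2.32 to 5.88) CPM in SI border and 1.81 (range 1.26 to 2.58) in LI border cells, where the mean of Notch4 was 12.3 and 1.91 CPM. In row >3 cells they summed to 2.82 (range 1.66 to 5.05) in the SI and 1.21 (range 0.456 to 1.68) in the LI. Without SI replicate 3 the SI sums were 4.10 and 1.71, and edgeR called 1 of the 5 higher in SI border cells. Their part in the site difference of Notch4 was not tested. Hes5 and Hey1, targets used elsewhere as readouts of Notch, were low, with at most 38.9 and 22.8 normalised counts in a library.

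**Figure D5:**
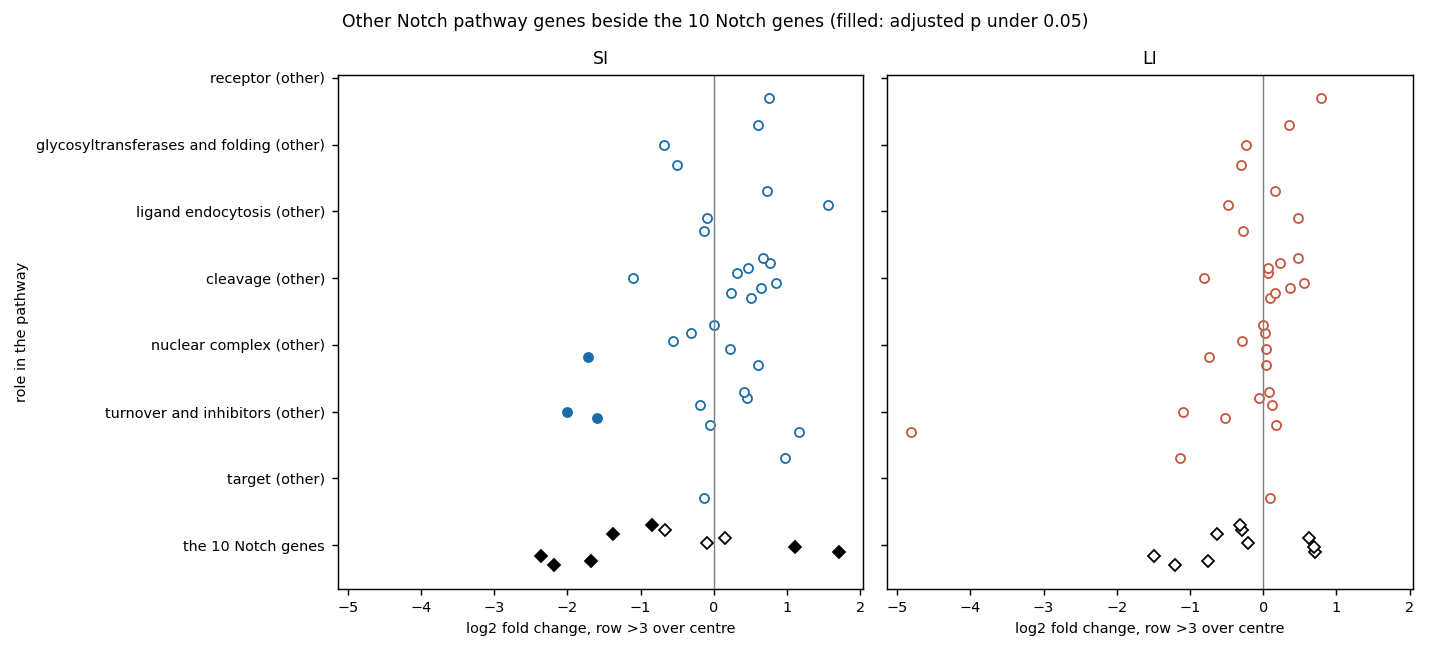
Log2 fold change of row >3 over centre cells (x axis) in the SI (left) and the LI (right) for the other Notch pathway genes that reached 1 CPM in at least 1 group, by role (y axis), and for the 10 Notch genes (black diamonds), with filled points where edgeR's adjusted p was under 0.05. In the SI 3 of the other genes are filled (Maml2, Dtx3 and Dtx4, all below 0) beside 7 of the 10, and in the LI none is filled.

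The genes whose pattern over the 18 libraries was most like that of Hes1 and Dll1 were listed as a description, by Pearson's r of log2 CPM among 10223 genes with a mean of at least 5 CPM. The libraries share groups, so r reflects the differences between them and carries no test. For Hes1 the 5 nearest were Tfrc, Cftr, Kcne3, Ifitm2 and 2810417H13Rik, with r between 0.95 and 0.97. Within the 9 libraries of a site their r lay between 0.88 and 0.98 in the SI and between 0.88 and 0.97 in the LI. For Dll1 they were Grin1os, Adrbk1, Atp9a, Tln1 and Galnt6, with r between 0.93 and 0.95, and between 0.93 and 0.96 in the SI and 0.84 and 0.94 in the LI.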

How the data were processed

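RNA was sequenced from 18 sorted libraries with a stranded SMART-Seq kit and paired reads. The authors trimmed reads with Skewer, aligned and counted them per gene with STAR on mm10, and normalised with DESeq2. Neither the annotation release nor the counting strand is given in the sources used here. The deposited raw count per gene was tested. The deposited normalised signal (the authors' counts divided by DESeq2 size factors) is printed as the normalised count per library. The 10 genes, the gene lists and the alternatives were chosen with earlier results of these data known.

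Groups were taken from the sample labels. Raw counts were fitted in R 4.3.3 with edgeR 4.0.16 (TMM scaling, robust quasi-likelihood fit of 6 groups, 12 residual degrees of freedom) on 26717 genes with a mean count above 0. Calls were made at an adjusted p under 0.05 (Benjamini-Hochberg, over all genes tested), and fold changes are given with a standard error. The site difference is the SI contrast minus the LI contrast. DESeq2 1.42.0, RLE factors, edgeR's filter on low counts, a replicate block, fits on the groups compared, library size alone, the older quasi-likelihood fit and libraries left out were alternatives. Within each site, libraries with the same number deviated together in every pair (r from 0.305 to 0.767 in the SI and 0.455 to 0.720 in the LI, 9 pairs each, 10223 genes), so the block was used within sites. This pairing is from the data, not the labels.

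Named were all 10 genes, up to 3 called genes per direction and comparison from the list of other pathway genes, the reference genes Rbpj, Adam10, Hes5, Hey1 and Atoh1, the 5 genes most like Hes1 and Dll1, and Olfm4 and Lgr5. Single marker genes of other cell types and genes that overlap the 10 were also named, under no fixed rule. A gene of the pathway list is not reported here and was left out of its counts. Exon lengths and positions are from GENCODE M21 (GRCm38), which held 42462 of 43346 identifiers, and promoter windows from RefSeq (GRCm38.p6). On counts simulated for SI row >3 against centre over 25604 genes, the fit called 82 of 100 genes changed by a log2 fold change of 2 and 28 of 100 changed by 1. The changed genes were drawn from those with a mean count of at least 100, so this says nothing of genes with lower counts. It also called 9 genes that had not been changed. Plots were drawn with matplotlib 3.10.9.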

Additional observations from a re-analysis of the deposited data

How the results depend on the processing

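Of 1360 alternative values of the 90 log2 fold changes, 1237 kept their direction and side of the threshold, 24 lost and 40 gained a call and 59 changed sign, and none of the 7 calls in SI row >3 cells changed sign. A replicate block within site gave 1 called gene for SI border, 4 for LI row >3 and 1 for the site difference of row >3, and changed no other count by over 1.5 times. Across the sites, r between equal numbers ran from -0.137 to 0.423 in 27 pairs, so not every pair deviated together, while 15 of 18 libraries were closest to their own number at the other site, a hint from the data and not the design. A block over all libraries called 2 genes between the sites for centre (Notch2 and Notch3), then 4 for border (Notch2, Notch3, Dll1 and Hes1) and 5 for row >3 cells (Notch1, Notch3, Dll1, Hes1 and Lfng), beside 5.61%, 4.27% and 6.89% of all genes. DESeq2 gave 1 for SI border, 1 for LI row >3 and 2 for centre SI vs LI, a fit on only the groups compared 1 for LI row >3 and 1 for border SI vs LI (1.03% and 1.17% of all genes), and the older quasi-likelihood fit 0 for centre SI vs LI (1.42%), and the cause was not tested. With libraries left out, the count ran from 0 to 2 for SI border, 6 to 8 for SI row >3, 0 to 5 for LI row >3, 0 to 3 for centre, 0 to 4 for border and 1 to 4 for row >3 between the sites, 0 to 1 for the site difference of row >3 and stayed at 0 for LI border and the site difference of border. The shares of all genes in these fits ran from 0% to 1.21%, 7.44% to 17.1%, 0% to 1.9%, 0.679% to 10.9%, 0.504% to 8.11%, 1.43% to 12.2%, 0% to 3.27%, 0% to 0.00382% and 0% to 0.16%, in the same order. Sign changes without a library left out were at or near 0: DESeq2 gave 0.0031 for Jag2 in SI border and 0.0071 for Dll1 in centre SI vs LI, RLE factors 0.0064 for the latter, edgeR's filter -0.0019 for Jag1 in the site difference of border, and library size alone -0.0088 there, -0.015 and -0.0064 for Jag1 in SI and LI border and -0.0060 for Dll4 in LI border. With libraries left out, Notch1 ran from -0.011 to 0.24 (centre SI vs LI). Notch2 ran from -0.53 to 0.065 (SI border vs centre), -0.13 to 0.21 (LI border vs centre), -0.050 to 0.55 (row >3 SI vs LI), -0.59 to 0.012 (site difference of border vs centre). Notch3 ran from -0.43 to 0.10 (LI border vs centre). Dll1 ran from -0.038 to 0.16 (LI border vs centre), -0.18 to 0.13 (centre SI vs LI). Dll4 ran from -0.067 to 0.10 (LI border vs centre), -0.11 to 0.35 (border SI vs LI), -0.22 to 0.088 (row >3 SI vs LI). Jag1 ran from -0.11 to 0.093 (SI border vs centre), -0.11 to 0.12 (LI border vs centre), -0.13 to 0.14 (site difference of border vs centre), -0.023 to 0.18 (site difference of row >3 vs centre). Jag2 ran from -0.43 to 0.83 (SI border vs centre), -0.23 to 0.93 (SI row >3 vs centre), -0.20 to 0.75 (centre SI vs LI), -0.83 to 0.066 (border SI vs LI), -0.41 to 0.18 (row >3 SI vs LI), -0.86 to 0.33 (site difference of row >3 vs centre). Lfng ran from -0.17 to 0.070 (LI border vs centre), -0.20 to 0.032 (centre SI vs LI). Nrarp ran from -0.20 to 0.040 (LI border vs centre), -0.31 to 0.066 (site difference of border vs centre). None of these was called with all libraries. Library size alone moved the median of all genes by -0.164 in SI and -0.107 in LI row >3 against centre. Scaling by library size alone, the older fit and the marker and pathway values without SI replicate 3 were chosen after seeing the data. Depth limits Notch3 most, with 24 counts over the SI row >3 libraries.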
